A study of Mus musculus with 8 samples.

Results

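The data described here are 4 RNA-seq libraries of wild-type (WT) splenic Ly6Chigh monocytes, chosen as the count columns labelled WT from a series of 8 libraries. Monocytes were sorted by flow cytometry from the spleens of mice at day 7 after induction of an aneurysm, and the other 4 libraries were made in the same way from Olfr2 knockout (KO) mice at the same day. All 8 libraries therefore share the aneurysm induction, and no library from mice without an aneurysm is among them. The labels give neither the way the aneurysm was induced nor the age, sex or strain of the mice, and they do not say whether the 4 WT libraries came from separate animals, so that the spread between them may be technical in part. No comparison with the KO libraries was made: the question was which genes these cells expressed, in what order, and how far the 4 libraries differed.

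Ly6Chigh monocytes are the classical, inflammatory monocytes of the mouse. They leave the bone marrow through the chemokine receptor CCR2, are held as a reserve in the spleen, and enter inflamed tissue, where they become macrophages or dendritic-like cells. Ly6Clow, or nonclassical, monocytes patrol the vessel wall and depend on the nuclear receptor NR4A1. Levels are given as CPM, the counts of a gene scaled to the same total count in every library, and, where genes are compared with each other, as RPKM, which is CPM per kilobase of annotated exon.

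The sorted cells carried the messages that define their label. Lyz2, which encodes lysozyme of myeloid cells, was the most abundant gene in each library, at 102453, 106823, 111569 and 112385 CPM in WT replicates 1 to 4. It took 10.8% ± 0.461 of all counts (SD, n = 4), and its 4 values lay close together, with a coefficient of variation (CV, SD over mean) of 4.26%. Chil3, a chitinase-like protein of Ly6Chigh monocytes, stood at 12990, 7298, 11505 and 12299 CPM, low in replicate 2 and closer together in the rest. Plac8, a small cysteine-rich protein of immature myeloid cells, had 8259, 7037, 9269 and 12148 CPM, with replicate 4 above the rest. Ly6c2, which encodes the surface antigen used for the sort, was read at 4906, 5230, 4590 and 4059 CPM, a narrow range with a CV of 10.6%. Ccr2 had 1685, 1859, 1022 and 1686 CPM, low in replicate 3. Ranked by mean CPM among all genes, Lyz2 was at place 1, Chil3 at 3, Plac8 at 4, Ly6c2 at 16 and Ccr2 at 80. Per kilobase the order among these 5 was the same: mean RPKM was 82300 ± 3500 for Lyz2, 6754 ± 1570 for Chil3, 5765 ± 1369 for Plac8, 1714 ± 182 for Ly6c2 and 231 ± 54.7 for Ccr2 (SD, n = 4). The levels of Chil3 and Plac8 overlapped within the spread between libraries, and the other neighbours in this order did not.

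These 5 genes lie on GRCm38 at chromosome 10, 117277331 to 117282321 (Lyz2, minus strand), chromosome 3, 106147554 to 106167564 (Chil3, minus), chromosome 5, 100553725 to 100572245 (Plac8, minus), chromosome 15, 75108158 to 75111970 (Ly6c2, minus) and chromosome 9, 124101950 to 124113557 (Ccr2, plus). Some have close relatives whose reads can be hard to place. Of the 50-base windows of the longest coding transcript, 33.0% in Ly6c2 also occurred in another gene, mostly Ly6c1, 29.4% in Chil3, mostly Chil4, and 15.4% in Lyz2, mostly Lyz1. Plac8 shared none.

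Olfr2, the olfactory receptor gene that the series deleted in the KO mice, had 0 counts in each of the 4 WT libraries. A count of 0 allows up to 3 counts, which is 0.163, 0.157, 0.158 and 0.186 CPM in replicates 1 to 4, so that lower levels were not detectable at this depth. Of the 14 listed genes of olfactory receptor trafficking and signalling, 7 were at 0 in all 4 libraries and 2 reached 1 CPM. These were Rtp4, at 460.6 ± 56.9 CPM, a receptor transporter that also belongs to the interferon-stimulated genes, and Ric8b, a chaperone of olfactory G proteins, at 3.14 CPM. The G protein subunit Gnal averaged 0.132 CPM and the adenylate cyclase Adcy3 0.0466 CPM, both means at or below the value of 3 counts. Gnal had 2, 6, 2 and 0 counts in replicates 1 to 4, so that replicate 2 alone was above it.

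To show the DNA just upstream of abundant genes, 80 bases before the RefSeq start are printed for 5 of them (RefSeq promoters on GRCm38.p6, 5′ to 3′ on the gene's strand). They were picked, with their values known, among the 100 protein-coding genes with the highest RPKM whose printed bases hold no annotated exon, so as to show windows with and without the letters counted next. Capitals mark TATAAA, or AGGAAG read on either strand. The intervals are chr3:106167565-106167644 (minus) for Chil3, chr3:95526706-95526785 (plus) for Ctss, chr11:83593088-83593167 (minus) for Ccl6, chr15:75111972-75112051 (minus) for Ly6c2 and chr7:45921427-45921506 (minus) for Emp3.
Chil3: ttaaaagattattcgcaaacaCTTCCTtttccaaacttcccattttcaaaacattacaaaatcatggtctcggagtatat
Ctss: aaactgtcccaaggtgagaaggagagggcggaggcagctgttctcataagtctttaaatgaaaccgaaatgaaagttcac
Ccl6: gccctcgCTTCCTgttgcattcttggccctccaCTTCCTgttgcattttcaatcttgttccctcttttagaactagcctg
Ly6c2: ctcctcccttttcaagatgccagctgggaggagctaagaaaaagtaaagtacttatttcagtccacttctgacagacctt
Emp3: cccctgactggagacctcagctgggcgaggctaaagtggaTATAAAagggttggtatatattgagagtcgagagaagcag

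AGGAAG is a core of the binding motif of PU.1, the ETS factor that Spi1 encodes, and it was added after these sequences had been read. In the whole 300-base promoter windows, of which 75 of the 100 highest-RPKM genes had one, AGGAAG stood on either strand in 38.7%, against 39.4% of the 731 promoters of the genes that follow, down to RPKM rank 1000, and 33.8% of all 16734 protein-coding promoters. The longer letters GAGGAAGT, which contain it, were in 3 of the 75 (4.00%), 5.20% of the 731 and 3.20% of all. The TATA box letters TATAAA, on the gene's strand with the first base 40 to 20 bases before the start, were in 5 of the 75 (6.67%), against 1.08% of the 7416 promoters of genes at 1 CPM or more and 4.26% of the 9318 under 1 CPM. CCGGAAGT, on either strand, was in 4.00% of the 75, 10.1% of the promoters at 1 CPM or more and 1.79% of those under 1 CPM. CCAAT, on either strand, was in 30 of the 75, 39.9% of those at 1 CPM or more and 38.5% of those under 1 CPM. The 75 promoters had a median CpG content of 0.640 of that given by their C and G content, between 0.788 at 1 CPM or more and 0.318 under 1 CPM. The most abundant gene of all, Lyz2, had 0.0680. These are matches of letters, counted without a test.

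The count tables held between 16111725 and 19048245 counts per WT library, and 16148 to 16687 genes had at least 1 count. At 1 CPM or more there were 10156.5 ± 92.4 genes per library and at 1000 CPM or more 132 to 138. The 10 most abundant genes took 19.4% ± 1.3 of the counts, the 100 most abundant 41.6% ± 1.5, and 170 to 204 genes together took 50% (SD or range, n = 4). Replicates 3 and 4 were the more concentrated, with 42.6% and 43.1% of counts in their top 100 genes against 40.3% and 40.2% in replicates 1 and 2. Mitochondrial genes took 0.563% ± 0.0670 of counts and protein-coding genes 98.0%. Over the 4 libraries, 10248 of 56748 listed genes (18.1%) had a mean of 1 CPM or more, and 37034 had no count in any. Of the 21922 protein-coding genes listed, 9112 had a mean of 1 CPM or more, with a median RPKM of 3.31. The counts of list members at 1 CPM or more given below are to be read beside this share.

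**Figure D1:**
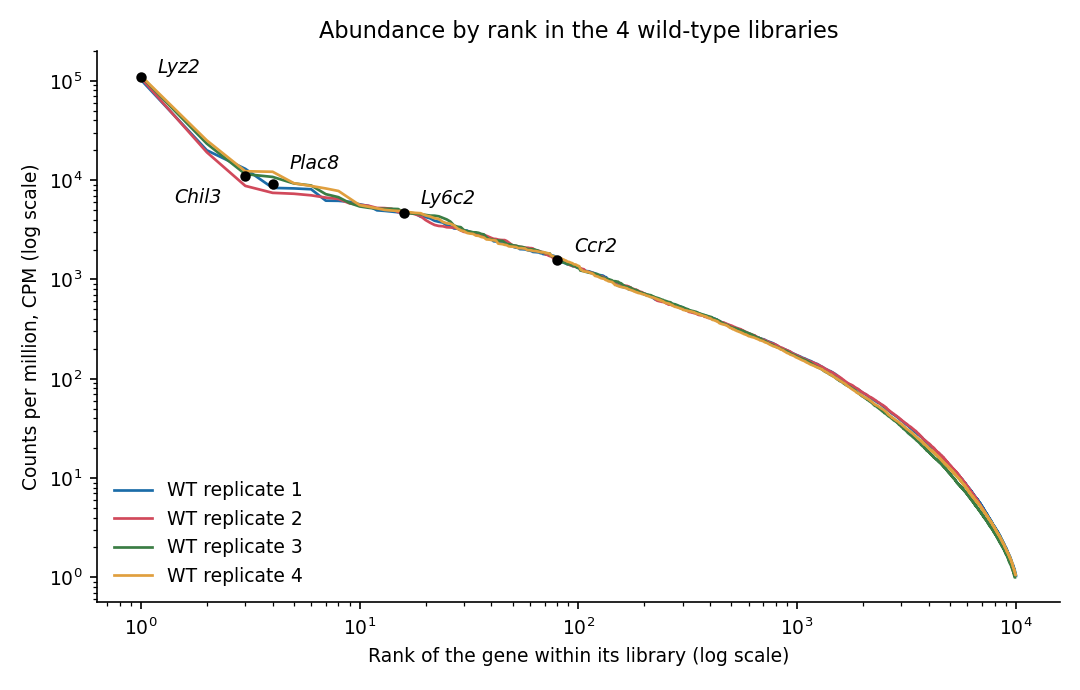
Abundance of each gene (CPM, log scale) against its rank within its own library (log scale) for the 4 WT libraries, 1 line each, down to 1 CPM; black points are the mean CPM and rank of the 5 marker genes. The 4 lines nearly coincide, and the markers lie between Lyz2 at rank 1 and Ccr2 at rank 80.

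Below Lyz2, the genes at the head of the list had differing roles. Tmsb4x, which encodes the actin-sequestering peptide thymosin beta-4, came second at 19992, 19112, 23329 and 25146 CPM, higher in replicates 3 and 4 than in 1 and 2. Ccl6, a chemokine of myeloid cells, had 6050, 6675, 10780 and 9320 CPM and was also higher in replicates 3 and 4. Ctss, the cathepsin that trims the class II invariant chain, was steadier at 8360, 7452, 7228 and 8740 CPM. Tyrobp, the DAP12 signalling adaptor, had 6193, 6464, 8837 and 7784 CPM, and B2m, the light chain of class I molecules, 8102, 8758, 5886 and 8248 CPM. Replicate 3 was thus the highest library for Tyrobp and the lowest for B2m. Itm2b, a membrane protein, was among the steadiest of the abundant genes, at 4827, 4689, 4540 and 4680 CPM (CV 2.51%), while H3f3b, a gene of the replacement histone H3.3, ranged from 2529 to 4968 CPM (CV 30.9%).

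Exon length changed the order. Short transcripts gained when CPM was divided by length: Tyrobp moved from place 8 to 3 (10974 RPKM), Wfdc17 from 23 to 5 (7272 RPKM), Ifitm3, which blocks virus entry, from 14 to 6 (7153 RPKM) and the interferon-stimulated Ifi27l2a from 63 to 13 (4225 RPKM). Genes with a longer union of annotated exons dropped, such as the ferritin heavy chain gene Fth1 from 20 to 47 (1220 RPKM). Its union had 3469 bases, against 2062 in its longest annotated transcript. The union of annotated exons had a median of 2449 bases in the 100 genes highest by CPM, 1599 bases in the 100 protein-coding genes highest by RPKM and 4326 bases in all protein-coding genes at 1 CPM or more. Of the 100 genes highest by mean CPM, 70 were also among the 100 highest by mean RPKM. Between libraries, 83 genes were in the top 100 by CPM of all 4, of 117 that reached it in any. For the top 10 the numbers were 8 and 13.

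**Figure D2:**
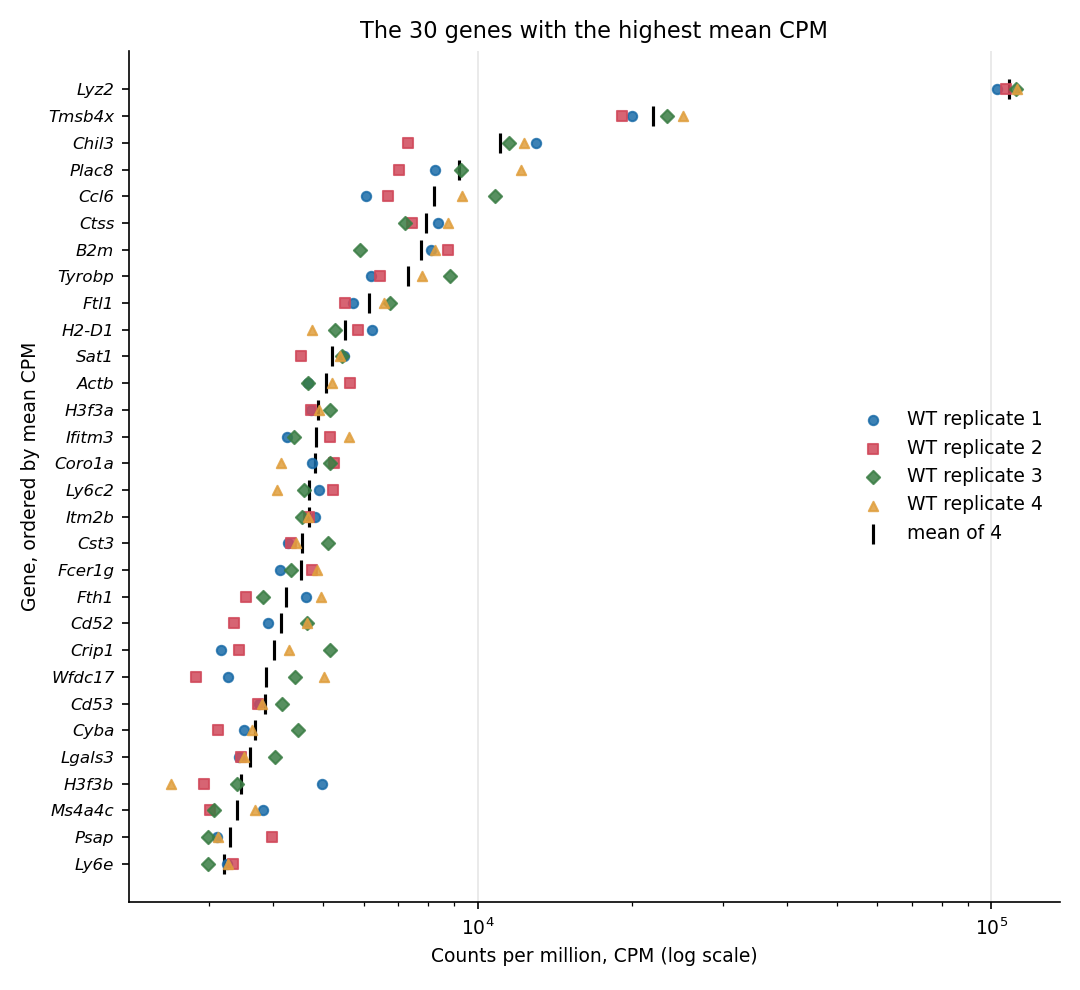
The 30 genes with the highest mean CPM, ordered from the top, with the CPM of each WT library (coloured symbols, log scale) and the mean of 4 (black bar). Lyz2 stands apart at 108307 CPM, Tmsb4x follows at 21895 CPM, and the values of neighbouring genes overlap from Chil3 downwards.

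The 22 listed markers of classical monocytes were all at 1 CPM or more, with a median of 121 RPKM, against 3.31 RPKM for the protein-coding genes at 1 CPM or more. Together they took 14.6% ± 0.70 of counts, of which Lyz2 alone made 74.1%. Ms4a4c, a tetraspan membrane protein, had 1937 RPKM, Hp (haptoglobin) 1229 RPKM, and Mgst1, a glutathione transferase of membranes, 997 RPKM. Ly6a2 had 1285 RPKM although the annotation calls it a pseudogene. Near the bottom was Itgam, the CD11b integrin chain by which myeloid cells are often gated, at 19, 19.1, 9.32 and 13 CPM (3.00 RPKM), chosen for mention after its values were seen. An overlapping gene model, Gm49368, held most of the 72.4% of its windows found elsewhere, and 68.7% of its exon bases lay in exons of another gene. Vcan (1.09 RPKM), a matrix proteoglycan, and Thbs1 (1.53 RPKM), thrombospondin, were the lowest of the list; the annotated exons of both are long.

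Markers of nonclassical monocytes were present at lower levels, with all 20 at 1 CPM or more, a median of 4.87 RPKM and 2384 ± 115 CPM in sum. The eosinophil-associated ribonuclease gene Ear2 (600 RPKM), the G protein gamma chain Gngt2 (528 RPKM), the transcription factor Cebpb (158 RPKM) and the adhesion receptor Adgre4 (88.6 RPKM) led the list. Of the windows of Ear2 41.5% also occurred in another gene, mostly Ear10. Nr4a1, the factor on which Ly6Clow cells depend, averaged 45.1 CPM (12.8 RPKM) and Cx3cr1, the fractalkine receptor, 41.1 CPM (9.12 RPKM), set against 1714 RPKM of Ly6c2 and 231 RPKM of Ccr2. In bulk RNA, a few cells of another type with a high level and many cells with a low level cannot be told apart.

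Markers of other spleen cells were scarce. None of 15 T cell markers reached a mean of 1 CPM, and together they summed to 1.73 ± 0.359 CPM. Of 11 markers of natural killer cells, 1 reached it, the receptor Klrk1, at 10.2 CPM, while Ncr1 and Eomes were at 0 in all 4 libraries. The 10 markers of platelets summed to 1.52 CPM, the 9 of basophils and mast cells to 4.02 CPM, nearly all of it Hdc, and the 14 of red cells to 22.6 CPM. Among 11 stromal and endothelial markers only Acta2, smooth muscle actin, reached 1 CPM, at 12.4 CPM.

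Neutrophil markers were uneven. Of 18, 10 reached 1 CPM, 7 reached 10 CPM and 1 reached 100 CPM. Csf3r (36.8 CPM), Prtn3 (27.4 CPM), Lcn2 (22.5 CPM) and Padi4 (10.8 CPM) were among the 7. Mmp8, the neutrophil collagenase, had 555, 350, 224 and 432 CPM and made 71.7% of the sum of the 18 neutrophil markers, which was 544 ± 168 CPM. The calgranulin genes S100a8 (34.8 ± 10.7 CPM) and S100a9 (10.8 ± 4.59 CPM), among the most abundant messages of neutrophils, were modest, and Ly6g (0.0705 CPM), Retnlg (0.0132 CPM), Mmp9 (0.0272 CPM) and Cxcr2 (0.155 CPM) were below 3 counts per library on average. All 7 neutrophil markers at 10 CPM or more were lowest in replicate 3, and 6 of them with either other scaling of the libraries (TMM or DESeq2 size factors); 41.2% of all genes at 10 CPM or more were lowest there.

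B cell markers were also uneven, with 4 of 16 at 1 CPM or more. Ighm, the constant region of the IgM heavy chain, had 235, 360, 261 and 164 CPM and Cd79b, a signalling chain of the B cell receptor, 22.1, 37.5, 34.1 and 16.1 CPM. For both genes replicate 2 was highest and replicate 4 lowest. The partner chain Cd79a averaged 0.202 CPM, Ms4a1 (CD20) 0.0394 CPM, and Pax5, Ebf1, Blk and Vpreb3 had no count in any library. The kappa light chain Igkc was at 0.272, 0.105, 0.421 and 11.2 CPM, high in replicate 4 only, where Ighm was lowest.

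Genes of antigen presentation by class II molecules were abundant. The invariant chain Cd74 had 1960, 3007, 1982 and 2069 CPM, H2-Ab1 2011, 2089, 2000 and 1633 CPM and H2-Aa 1779, 2178, 1838 and 1580 CPM. Replicate 2 was the highest library for these 3 genes and stood furthest apart for Cd74. The 16 listed class II presentation genes, which include Ctss, had a median of 131 RPKM, and 15 of them were at 1 CPM or more. The class II genes also stand in the list of conventional dendritic cell markers, where Cd209a (DC-SIGN, 168, 409, 277 and 172 CPM) was the next most abundant, followed by the lectin gene Clec10a (56.5 CPM) and the transcription factor gene Batf3 (49.5 CPM). In this list 12 of 17 genes reached 1 CPM, among them also Dpp4 (23.1 CPM), Flt3 (15.4 CPM), Ciita (8.74 CPM) and Clec4a4 (7.48 CPM). Zbtb46 (0.206 CPM), Xcr1 (0.114 CPM), Clec9a (0.244 CPM) and Itgae (0.108 CPM), from the same list, were near the value of 3 counts. Of 14 markers of plasmacytoid dendritic cells, 5 reached 1 CPM and the list summed to 572 ± 56.9 CPM. Irf7 (244 CPM), Bst2 (207 CPM) and Lair1 (111 CPM), of which Irf7 and Bst2 are also interferon-stimulated, made up nearly all of it, while Siglech, which defines these cells, was at 0 in all libraries. Among 18 macrophage markers, 12 reached 1 CPM, led by Trf, transferrin (129 RPKM), the heme oxygenase gene Hmox1 (116 RPKM) and Adgre1, which encodes F4/80 (102 RPKM). Of the windows of Trf 79.8% occur in another gene. Spic (27.6, 43.4, 17.3 and 64.6 CPM), C1qb (16.4 CPM) and C1qc (6.62 CPM) were also among the 12. Cd5l (0.370 CPM), Timd4 (0.0136 CPM) and Marco (0.0136 CPM), genes of resident macrophages, were under 1 CPM.

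**Figure D3:**
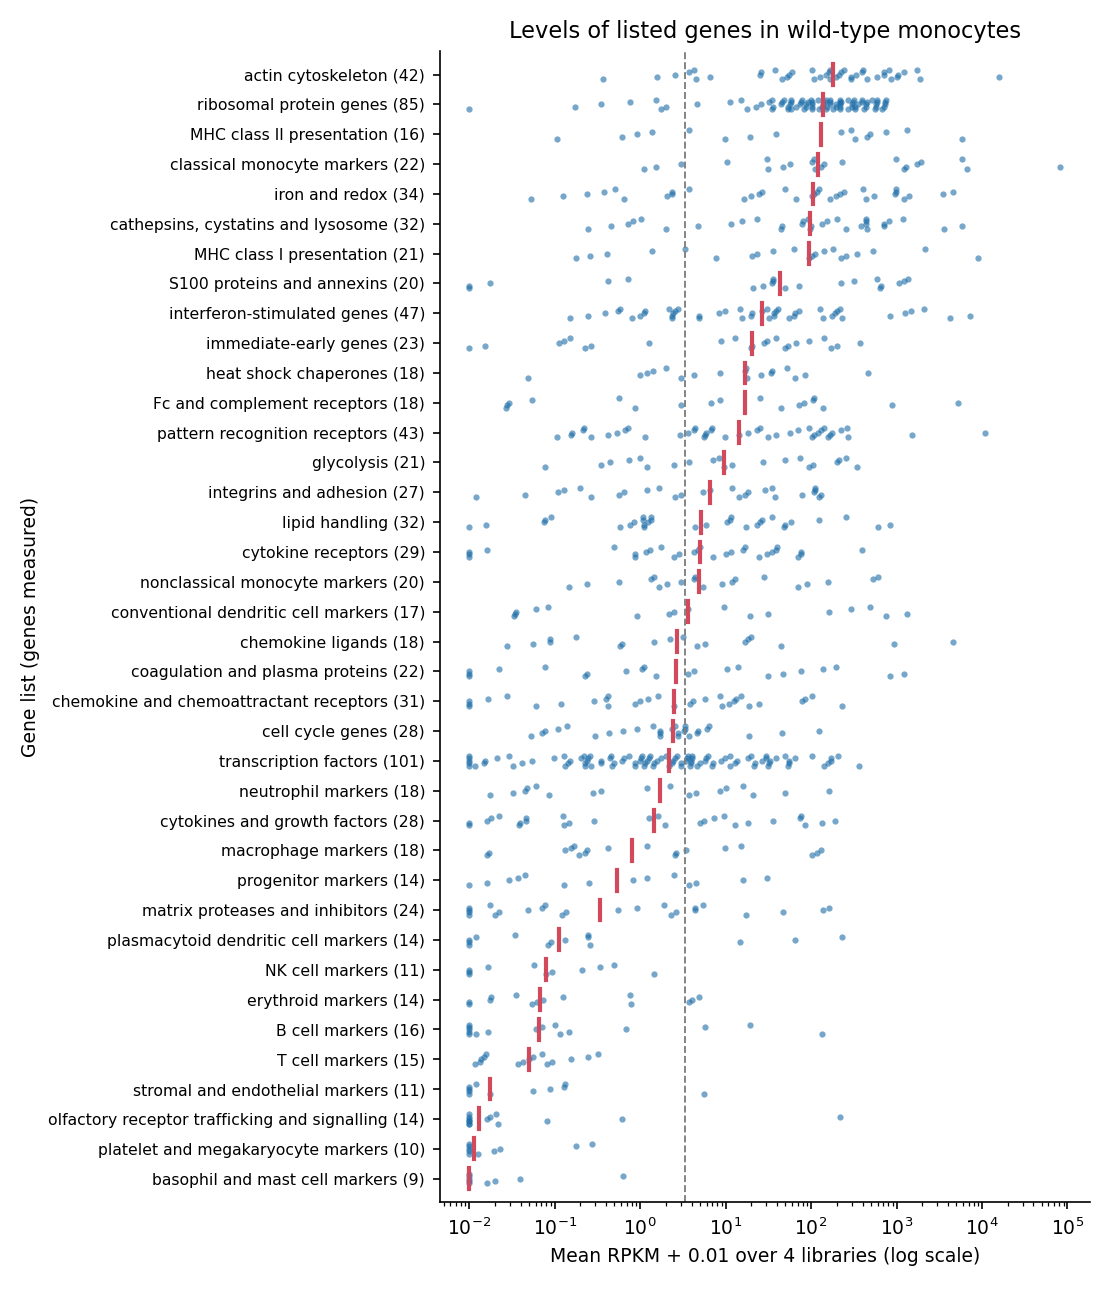
Mean RPKM over the 4 WT libraries (plus 0.01, log scale) of the members of 38 gene lists, ordered by their median; each point is a gene, the red bar is the median of the list, the number of measured genes is in brackets and the dashed line is the median of protein-coding genes at 1 CPM or more (3.31). Actin, ribosomal, class II and classical monocyte genes are highest, and markers of basophils, platelets, stroma and T cells lie at the low end.

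Receptors that steer monocytes were dominated by Ccr2, which made 63.1% of the summed CPM of 31 chemoattractant receptors, 22 of them at 1 CPM or more. Per length, Ccr2 (231 RPKM) was followed by Ccr1 (103 RPKM), another receptor for inflammatory chemokines, Ltb4r1 (84.1 RPKM), the receptor for leukotriene B4, and Fpr2 (78.7 RPKM), a formyl peptide receptor. The place of Ccr1 rested on replicate 4: its mean was 292 CPM over the 4 libraries and 136 CPM without that one. The lymph node receptor Ccr7 averaged 0.762 CPM, and Cxcr5 and Ackr3 were at 0. Of 18 chemokine ligands, 11 reached 1 CPM. Ccl6 (4572 RPKM) and Ccl9 (944 RPKM) stood well above Ccl2 (43.9 RPKM), the ligand of CCR2, and Cxcl10 (19.9 RPKM). The inflammatory chemokines varied more: Ccl2 was read at 83.2, 21, 46.6 and 49.2 CPM and Cxcl10 at 64.0, 62.0, 27 and 26.1 CPM, against 2752, 2493, 3360 and 2897 CPM for Ccl9. Cxcl10 was thus higher in replicates 1 and 2 than in 3 and 4.

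Of 27 integrin and adhesion genes, 23 were at 1 CPM or more. Cd177 (129 RPKM), Cd47 (125 RPKM), the signal that restrains phagocytosis, Itgb7 (111 RPKM) and Itgb2 (109 RPKM), the shared beta chain of the leukocyte integrins, were among the highest. Among 28 cytokines, 16 reached it, with Il1b at 191 RPKM, progranulin Grn at 136 RPKM and Il18 at 83.9 RPKM, while Tnf was at 1.62 RPKM, Il6 at 0.281 RPKM and Il12b at 0. Of the cytokine receptors, 25 of 29 were at 1 CPM or more, against 9112 of 21922 protein-coding genes. The interferon-gamma receptor chain Ifngr1 was highest (395 RPKM). Fc receptor genes were led by the shared gamma chain Fcer1g (5172 RPKM), Fcgr3 (877 RPKM) and the inhibitory Fcgr2b (137 RPKM). Of 43 pattern recognition genes, 40 were at 1 CPM or more, with Tyrobp, Clec4a3 (1524 RPKM), the beta-glucan receptor Clec7a (271 RPKM) and Unc93b1 (265 RPKM), which carries Toll-like receptors to endosomes, at the top. The Toll-like receptors themselves were lower, Tlr2 at 30.9 RPKM and Tlr4 at 5.70 RPKM.

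Interferon-stimulated genes were expressed at day 7 in 46 of 47 cases, with a median of 26.5 RPKM and 19611 CPM in sum. The highest per length were genes of small membrane proteins, Ifitm3 (7153 RPKM), Ifi27l2a (4225 RPKM), Ifitm2 (2115 RPKM) and Ifitm6 (1489 RPKM). In Ifitm2 48.5% of windows also occurred in another gene, and 40.9% of its exon bases lay in exons of another gene. Genes that respond sharply to interferon were lower, Isg15 at 139 RPKM, Ifit1 at 2.74 RPKM, Rsad2 at 4.83 RPKM and Mx1 at 2.18 RPKM. These were named after their values were seen. No library from mice without an aneurysm was analysed here, so that no change is implied.

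Of the listed transcription factors, 84 reached 1 CPM and 17 did not. Xbp1, a factor of the unfolded protein response, was highest per length (364 RPKM), followed by Spi1, which encodes PU.1 (206 RPKM), Fos (173 RPKM), Id2 (170 RPKM) and Cebpb (158 RPKM). Spi1 was among the steadiest, at 575, 555, 535 and 556 CPM (CV 2.92%), and Cebpb had 259, 228, 234 and 232 CPM (CV 5.90%). Id2, an inhibitor of helix-loop-helix factors, had 379, 306, 282 and 688 CPM, and Xbp1 1097, 1009, 960 and 1656 CPM, both highest in replicate 4. Irf8, which directs monocyte and dendritic cell fate, was at 18.3 RPKM, and Klf4, a factor of Ly6Chigh and patrolling monocytes, at 1.2 RPKM. Pax5, Ebf1, Gata2 and Gfi1, which mark other lineages or progenitors, had no count in any library.

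The machinery of phagocytes was present at high levels. All 42 actin cytoskeleton genes were at 1 CPM or more, with a median of 183 RPKM, and together they took 6.40% ± 0.218 of counts. Lysosomal genes had a median of 98.4 RPKM (31 of 32 at 1 CPM or more), led by Ctss (5851 RPKM), cystatin C (Cst3, 3584 RPKM), prosaposin (Psap, 1201 RPKM) and Cstb (817 RPKM). Iron and redox genes had 106 RPKM (31 of 34), with the ferritin light chain Ftl1 (4574 RPKM, 78.9% of windows shared), Cyba of the oxidase that makes superoxide (3544 RPKM) and Gpx1 (1413 RPKM). Among lipid genes, Apoe, which carries cholesterol (835 RPKM), and Alox5ap, needed to make leukotrienes (606 RPKM), led 27 of 32 genes at 1 CPM or more. Matrix proteases, of interest because aneurysm walls lose elastic fibres, were uneven. In their list 12 of 24 genes reached 1 CPM, against 9112 of 21922 protein-coding genes. Mmp8 was at 161 RPKM, the urokinase receptor Plaur at 139 RPKM, the elastase inhibitor Serpinb1a at 47.5 RPKM and Timp2 at 17.3 RPKM (67.5 ± 4.26 CPM). By contrast, Mmp2 (0.0418 CPM), Mmp9 (0.0272 CPM) and Timp1 (0.0977 CPM) averaged under 3 counts per library.

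Several genes that most cells use had few counts here; they are named after their values were seen. Gapdh was read at 2.07, 6.35, 1.05 and 2.67 CPM, although other glycolytic genes were abundant, Eno1 at 1397 CPM, Ldha at 1145 CPM and Pkm at 1055 CPM. Rpl13a was at 9.86, 10.1, 10.3 and 8.69 CPM, Polr2a at 1.09, 0.472, 0.737 and 1.18 CPM and the transferrin receptor Tfrc at 1.03, 0.682, 0.632 and 0.497 CPM. Of the windows of Gapdh 82.5% also occurred in another gene, of Rpl13a 57.4%, and of Polr2a and Tfrc none. Genes with high sharing were found at both ends: Rpl10 shared 85.4% of its windows and had 586 RPKM, and Eno1 shared 67.9%. Over protein-coding genes with any count, the median was 1.67 CPM for the 464 that shared over 50% of their windows, of which 311 were under 10 CPM. It was 4.67 CPM for the 8770 that shared none and 13.8 CPM for the 320 that shared 30% to 50%. Across the 85 ribosomal protein genes, many of which have processed pseudogenes, RPKM and shared windows had a Spearman correlation of 0.121. Ribosomal protein genes as a whole took 2.94% ± 0.263 of counts, had a median of 136 RPKM, and 81 of 85 were at 1 CPM or more. Only 2 were among the 100 genes with the highest mean CPM, Rps9 at place 86 and Rps14 at place 93. Rpl24 (0.348 CPM) and Rps10 (0.381 CPM), whose windows are shared to 81.7% and 51.8%, were nearly without counts. How reads with several places were counted is not given in the sources used here, and no fit of these levels on sharing was made.

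The 10 most abundant genes that the annotation does not call protein-coding were Ly6a2 (1026 CPM), the mitochondrial ribosomal RNA mt-Rnr2 (785 CPM), Clec7a (715 CPM), Ifi30 (447 CPM), Ighm (255 CPM), Tmem134 (250 CPM), Ndufb1 (193 CPM), the snoRNA host Gas5 (155 CPM), mt-Rnr1 (137 CPM) and Cct6a (123 CPM). Several of them have known proteins, among them Clec7a and the thiol reductase Ifi30, so that the category reflects the annotation release. Pseudogenes took 0.949% ± 0.0338 of counts. The libraries agreed on sex-linked genes: Xist had no count in any, and the Y-linked Eif2s3y had 69.9, 79.8, 52.0 and 69.6 CPM and Ddx3y 20.3, 18.4, 13.6 and 22.7 CPM.

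The spread between the 4 libraries was larger than counting error at every level of abundance. Over 5496 genes with a mean of 10 CPM or more the median CV was 15%. It was 26.0% between 1 and 10 CPM, where counting alone would give 12.9%, 16.5% between 10 and 100 CPM (counting 4.54%), 12.3% between 100 and 1000 CPM (1.66%) and 11.9% above (0.542%). The common biological coefficient of variation estimated by edgeR over 10326 genes was 22%. Pairs of libraries had a Spearman correlation of 0.958 to 0.976 across the 5496 genes, which are not independent replicates. Replicates 1 and 4 were the closest pair, with an SD of log2 ratios of 0.33 and 79 genes apart by over 2-fold. Replicates 2 and 3 were the furthest apart, at 0.46 and 274 genes.

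**Figure D4:**
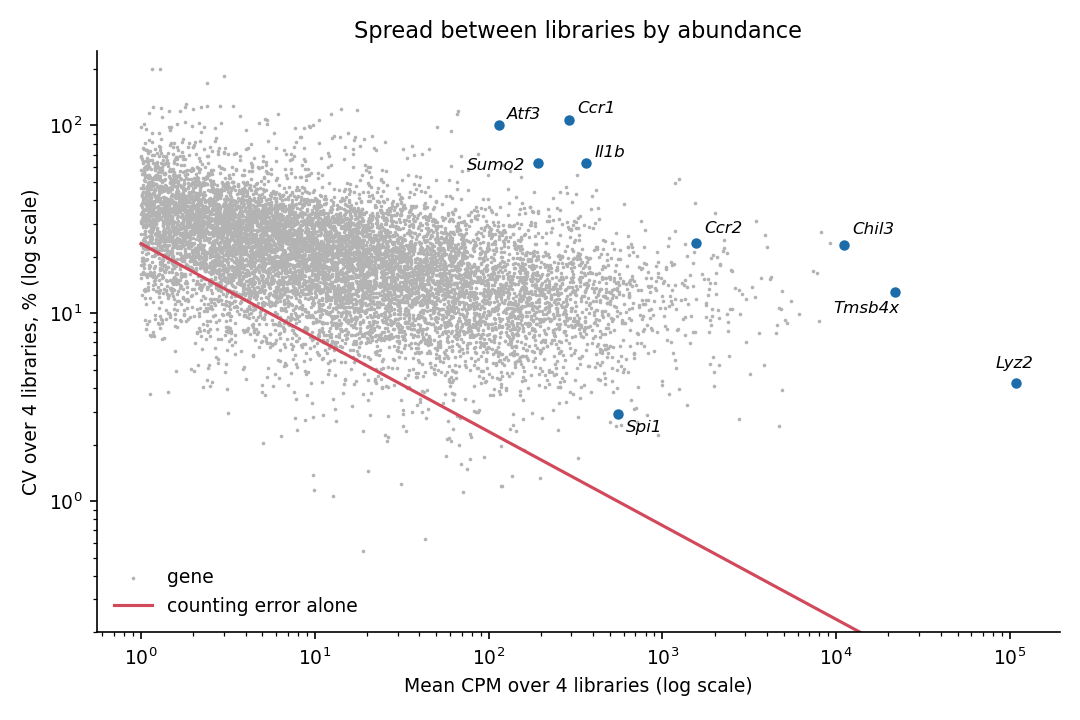
CV over the 4 WT libraries (%, log scale) against mean CPM (log scale) for genes at 1 CPM or more (grey), with the CV that counting error alone gives (red line) and 9 named genes (blue). Ccr1, Atf3, Sumo2 and Il1b lie far above genes of like abundance, and Lyz2 and Spi1 below most.

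Of 1562 genes at 100 CPM or more, 9 had a CV above 50% and 107 a CV under 5%. The largest belonged to Ccr1, at 177, 132, 99.5 and 759 CPM (CV 107%), where replicate 4 stood alone. Atf3, a stress-induced transcription factor, had 282, 48.7, 95.2 and 32.4 CPM, highest in replicate 1. Sumo2, which encodes a protein modifier (30.2% of windows shared), ran from 317 CPM in replicate 2 to 41.5 CPM in replicate 4. Il1b, the gene of interleukin-1 beta, had 430, 210, 158 and 658 CPM, and Fcgr4, the receptor for IgG2, 157, 63.3, 81.3 and 230 CPM. Clec4n (Dectin-2), at 130, 118, 91.5 and 274 CPM, shared with Ccr1, Il1b and Fcgr4 its maximum in replicate 4. The cell cycle inhibitor Cdkn2d also peaked there, at 576 CPM against 188 to 315 CPM in the others. Sgk1, a kinase gene, was highest in replicate 1 (220 CPM) and Tsc22d3, which encodes the leucine zipper protein GILZ, in replicate 3 (1846 CPM). Replicate 4 was the lowest for both, at 48.3 and 608 CPM. Dusp1, a phosphatase gene switched on by stress, was read at 1517, 890, 2005 and 563 CPM. Hspa5, the chaperone BiP, was highest in replicate 1 and lowest in replicate 3, at 438, 316, 134 and 223 CPM, and Anxa3 was highest in replicate 2 (215 CPM).

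At the low end of the spread, Stoml2 of the inner mitochondrial membrane had 118, 116, 119 and 117 CPM (CV 1.20%), and Trappc3, a subunit of a vesicle-tethering complex, 122, 119, 120 and 118 CPM (CV 1.20%). Tpd52l2, Tmco1, Eif3i, Atp6v0d1, Selenof, Suclg1, Ube2a, Usb1, Itm2b and Vdac3 (47.5% of windows shared) completed the 12 with the smallest spread, with CVs from 1.35% to 2.51%. For some of these the CV was below that of counting error alone, as for Stoml2 and Trappc3 (2.17% and 2.15%), so that their order carries little information. Among the lists, the median CV of members at 100 CPM or more was 29.5% for 9 immediate-early genes and 34.2% for 7 heat shock chaperones, against 12.2% for all 1562 genes and 10.7% for 63 ribosomal protein genes.

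Whole gene groups stood higher or lower in single libraries. Genes were kept by a mean of 10 CPM or more over the 4 libraries. A gene high in a single library can thus pass through that library. Among 28 cell cycle genes, 24 reached 1 CPM and 11 reached 10 CPM. The count and median below for replicate 2 may in part follow from this limit, which was not tested. Of 11 cell cycle genes at 10 CPM or more, 10 were highest in replicate 2, where 37.7% of all 5496 genes were highest, with a median of 0.95 above the gene's own mean on the log2 scale; with library sizes scaled by TMM it was 9 of 11 and by DESeq2 size factors 10. Stmn1, which encodes a microtubule destabiliser, had 23, 78.0, 24.5 and 18.7 CPM, the mitotic cyclin gene Ccnb2 4.08, 24.1, 6.90 and 3.72 CPM, and Cdk1 5.55, 28.2, 10.4 and 5.90 CPM. Mki67 averaged 0.608 CPM and was not highest in replicate 2 (0.381, 0.472, 0.895 and 0.683 CPM).

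Of 15 immediate-early genes, 12 were lowest in replicate 4, where 29.0% of all genes were lowest, and 9 (8 with DESeq2 size factors) were highest in replicate 1, against 24.8% of all genes. Their median was 0.44 above the mean in replicate 1 and -0.51 in replicate 4, on the log2 scale. Ier2 had 414, 319, 290 and 196 CPM, Fos 567, 356, 430 and 276 CPM and Junb 415, 296, 286 and 290 CPM. Replicate 1 was the highest for each of the 3.

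Of 12 heat shock chaperones, 10 were lowest in replicate 3, against 41.2% of all genes, with a median of -0.65 on the log2 scale. Hspa8, the constitutive HSC70 (73.2% of windows shared), had 2873, 1957, 1186 and 2054 CPM and Hsp90ab1 222, 141, 79.6 and 182 CPM. Replicate 3 was also the lowest for 18 of 21 cytokine receptors (17 with either other scaling), for example Ifngr1 (1108, 1379, 862 and 1149 CPM) and Il13ra1 (309, 311, 167 and 358 CPM). The counts for immediate-early genes in replicate 4 and for chaperones in replicate 3 were the same with both other scalings.

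The ribosomal protein genes moved the other way. Of 77 at 10 CPM or more, 74 were highest in replicate 3 or 4, against 37.5% of all 5496 genes. With either other scaling it was 75, against 49.8% (TMM) and 50.9% (DESeq2 size factors) of all genes. In 61 both of these libraries lay above both replicate 1 and replicate 2, against 11.8% of all genes, and with the other scalings in 68 and 71, against 18.1% and 18.8%. The size was small: the median deviation was -0.09, -0.14, 0.11 and 0.13 on the log2 scale in replicates 1 to 4. Rps9 had 1360, 1288, 1698 and 1673 CPM and Rps14 1197, 1132, 1741 and 1455 CPM. An exception was Rpl21 (26.2% of windows shared), at 26.2, 24.9, 26.6 and 126 CPM, high only in replicate 4. In the count table, the names of replicates 1 and 2 carry numbers of a 1600 series and those of replicates 3 and 4 numbers of a 1700 series. The labels do not say what these numbers stand for. The part of this split in the result was not tested.

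**Figure D5:**
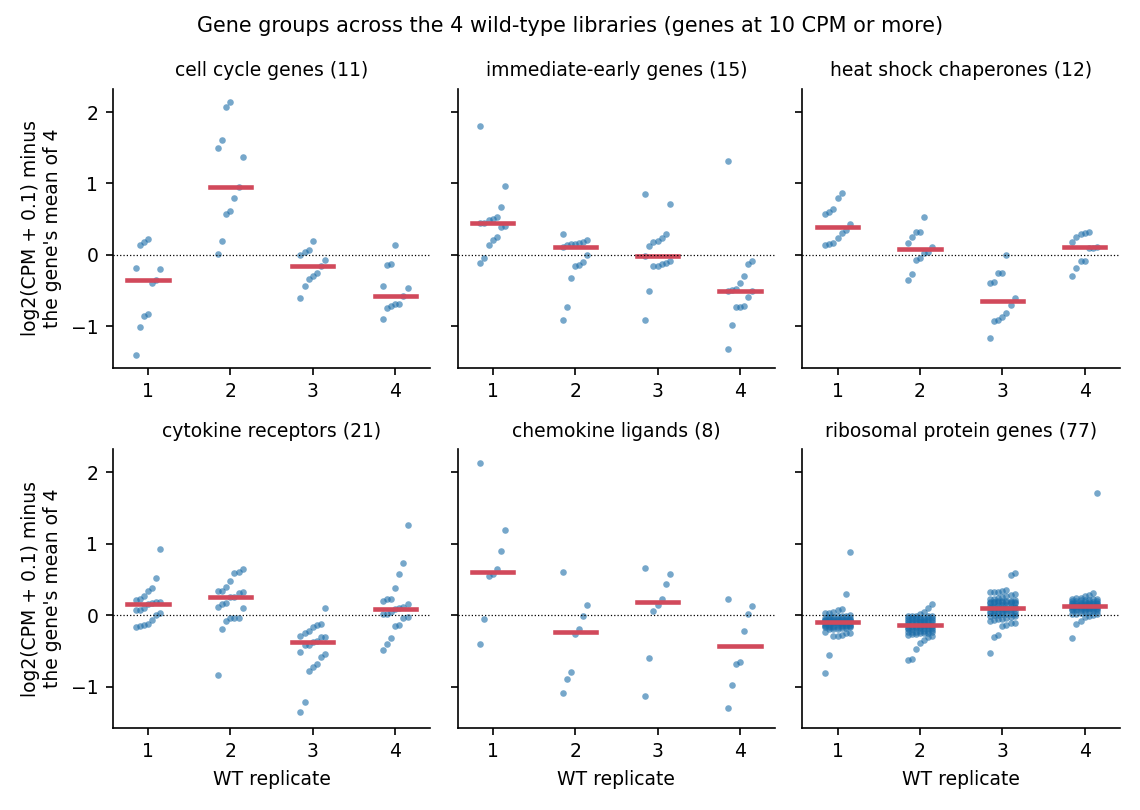
Difference of log2(CPM + 0.1) from the gene's own mean of 4 libraries, for genes of 6 groups (number of genes in brackets), by WT replicate. Points are genes and red bars the median. Genes were kept by a mean of 10 CPM or more over the 4 libraries, so that a gene high in a single library can pass through it. Cell cycle genes are high in replicate 2, chaperones low in replicate 3, immediate-early genes high in replicate 1 and low in replicate 4, and ribosomal protein genes slightly higher in replicates 3 and 4.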

How the data were processed

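Polyadenylated RNA of flow-sorted cells was primed with oligo-dT, copied by template switching (SMART-Seq v4) and amplified by PCR, per the labels' protocols. Values came as unnormalized counts for each gene in a table that the authors deposited, from which the 4 WT columns were read. The submitters' processing notes name HISAT2 2.0.5 and featureCounts 1.5.0-p3, and give GRCm38 as the build. No source used here gives the annotation release, the strand setting or how reads with several places were treated. Without strand, reads of overlapping antisense genes cannot be told apart. Long messages may be recovered less evenly with this priming, and PCR copies are not independent molecules, so that limits from 3 counts cover counting error only.

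CPM was computed from the summed gene counts of each library, and RPKM as CPM per kilobase of the union of exons in GENCODE M21 (GRCm38), which held 52125 of the 56748 identifiers; the other 4623 had 0.187% of counts. Those had no length and no RPKM. Shared windows are exact 50-base windows of the longest transcript (protein-coding where a gene has one) found in the transcript chosen for another gene. Promoters came from RefSeq (GRCm38.p6). The spread was estimated with edgeR 4.0.16 (TMM, filterByExpr, intercept only) in R 4.3.3. It was checked on simulated counts of 10326 genes, drawn with a spread of 20% except for 200 genes with a larger one. The common estimate over all of them came out as 21.9%. Those 200 were not limited to genes at 100 CPM or more, and 65 were among the 200 largest simulated CVs at 100 CPM or more. Every pair of libraries differed by more than sampling noise (chi-square per degree of freedom 25.4 to 50.2), so none is a copy of another. Each was counted as 1 replicate by its label; the check does not bear on whether they came from separate animals. There is 1 group and so no test between groups.

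The members and the 39 gene lists were chosen with earlier results of these data known; of 926 entries 925 matched a gene, and 1 of these repeated a gene under a synonym. Named genes were Olfr2, 5 markers, the 30 highest by CPM and 15 protein-coding genes highest by RPKM, the 4 highest members of each list with its defining members under 1 CPM, the 12 largest and 12 smallest CVs at 100 CPM or more, and the 10 highest genes without protein-coding type. Further list members and other genes in the text were chosen after their values were seen. Alternatives were TMM and DESeq2 1.42.0 size factors, a protein-coding denominator, other filters and lengths, and each library left out.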

Additional observations from a re-analysis of the deposited data

Results flagged for a closer look

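Among 246 groups of 4 values (named genes and summed marker lists), 18 had 1 library set apart from the rest by a larger part of the whole range than Dixon's 95% critical value for 4 samples allows. Chance flags about 1 in 20 groups, here 12.3 of 246, so that most of these may be chance. At 100 CPM or more 87 of 1562 genes met the same limit (5.57%, where chance gives 5%). Of these 1562 genes, replicate 3 was set apart as high in 24 and as low in 18, and replicate 2 as high in 13 and as low in 9.

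Among the 246 groups, replicate 2 was low for Sat1 (4521 CPM) and high for Psap (3968 CPM), Cd74 (3007 CPM), Stmn1 (78.0 CPM), Ccnb2 (24.1 CPM), the summed cell cycle genes (1007 CPM, against 597 to 641 CPM in the others), Atp6v0d1 (121 CPM) and Tubb1 (0.0525 CPM, a single count). Replicate 3 was high for Cst3 (5118 CPM), Lgals3 (4022 CPM) and the T cell genes Trbc2 and Cd8b1 (0.316 CPM each, 6 counts), and low for the summed stromal and endothelial markers (11.2 CPM). Replicate 4 was high for Ccr1 (759 CPM), Igkc (11.2 CPM) and Cpa3 (0.0621 CPM, a single count). Replicate 1 was high for Junb (415 CPM) and low for the summed erythroid markers (19 CPM).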

How the results depend on the processing

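No paired analysis was possible because 1 group was described and no comparison between genotypes was made. The median CV was 15% for genes at 10 CPM or more and 36.2% with no filter on low values, where counting error is larger; without single libraries it ran from 11.9% (without replicate 3) to 16%. The number of genes at 1 CPM or more, the share of counts in the top 100, the genes common to the 4 top-100 lists, the levels of the 5 markers and the number of lists with a median above 3.31 RPKM (19 of 39) moved by less than the spread between libraries, or by less than 1.5 times, under each alternative run, as did edgeR's common coefficient of variation (20.5% to 24.3%). Of the values of single genes and lists under an alternative, 1698 stayed within 1 SD and 73 did not. When the longest transcript replaced the union of exons, 20 list medians moved in this way and 19 did not, so that list medians depend on the length used. Levels under 3 counts per library (0.157 to 0.186 CPM) were not detectable at this depth.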
